A study of Mus musculus with 6 samples.

Results

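The 10 genes described here encode the core of the G1/S switch: the E-type cyclins Ccne1 and Ccne2, the D-type cyclins Ccnd1, Ccnd2 and Ccnd3, the kinases Cdk2, Cdk4 and Cdk6, the transcription factor E2f1 and the retinoblastoma protein gene Rb1. They were taken by gene symbol from a table of 51912 mouse gene IDs. Their mRNA was measured by bulk sequencing of total RNA in 6 libraries of bladder tumor organoids, 3-dimensional cultures of tumor cells, from C57BL/6 mice. The labels name SRT1720, known as a synthetic SIRT1 activator, as the treatment of 3 libraries, and vehicle as that of the other 3. The labels used here give no dose, time, age, genotype or tumor model. They do not say whether the 3 libraries of a group are separate cultures, so the p-values reflect only how these libraries spread. That spread exceeded sampling noise in every pair of a group, but its source is not given.

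A cell commits to DNA replication at the G1/S transition. D-type cyclins, made in response to growth signals, bind CDK4 or CDK6 and begin to phosphorylate RB1, which otherwise holds E2F factors inactive on their target promoters. E2F released from RB1 drives the E-type cyclins and the replication genes, and cyclin E with CDK2 completes RB1 phosphorylation. Inhibitors of the CIP/KIP family (Cdkn1a, Cdkn1b, Cdkn1c) and of the INK4 family (Cdkn2a to Cdkn2d) restrain these kinases. The RB pathway and the Cdkn2a locus are often altered in bladder cancer. The values here are mRNA levels and say nothing of kinase activity or of RB1 phosphorylation.

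The libraries held 18159660 to 22723278 recovered reads each and were not alike within a group. The epithelial genes Epcam and Cdh1 were high in all 6 libraries, at 69.4 to 191 and 14.5 to 56.5 TPM. Krt5, a basal keratin gene, had 16.4 TPM in SRT1720 1 and 9.61 TPM in Vehicle 2, and 425 to 1120 TPM in each of the remaining 4 libraries. Krt18, another keratin gene, ran the other way, with 226 TPM in SRT1720 1, 162 TPM in Vehicle 2 and 25.3 to 57.6 TPM elsewhere. Krt8 and Krt19 overlapped between these 2 sets of libraries. Upk3a, a uroplakin gene of umbrella cells, was at 0 in all 6. Of the other uroplakin genes, Upk1a and Upk2 reached at most 1.34 and 0.419 TPM, and Upk1b ranged from 0.660 to 12.1 TPM. The 407 genes tested on chromosome 3 lay low in library 3 of each group: relative to their own mean over the 6 libraries, their median log2 level was −0.39 in SRT1720 3, −0.41 in Vehicle 3 and 0.14 to 0.26 elsewhere. None of the 10 genes lies on that chromosome. Of markers of other cell types, 0 of 9 fibroblast, 2 of 9 leukocyte, 0 of 6 endothelial and 0 of 5 smooth muscle genes reached a mean of 1 TPM, and Cd3e, Cd3d, Ms4a1, Cldn5 and Emcn were at 0 throughout. The summed leukocyte markers lay between 1.04 and 11.6 TPM with SRT1720 and between 1.98 and 16.1 TPM with vehicle, and the fibroblast markers between 0.0708 and 2.82 TPM and between 0.225 and 4.19 TPM. Both sums were highest in SRT1720 2 and Vehicle 1, and elsewhere reached at most 3.11 and 0.596 TPM. The leukocyte gene Lyz2 had 10.5 and 14.3 TPM in those libraries and 0 elsewhere.

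Levels of different genes can be compared only per length, and the lengths behind the deposited values were found to be unusual. Among genes with 1 annotated transcript, the length behind the values equalled the annotated transcript in 89.1% of 1547 genes. Among genes with several transcripts it exceeded the merged exons by a median factor of 1.51, and in 11.5% of 9416 such genes it equalled the lengths of all transcripts added together. For Ccnd1 it was 5983 bases, the sum of its 3 transcripts, where the merged exons span 4709 bases. For Cdk4 it was 2.35 times the merged exons and for Ccne2 2.32 times, so the TPM values of these genes are set low beside genes with few transcripts. Differences between libraries are not touched by this, since a gene has the same length in each. Levels of different genes were therefore compared as RPKM over merged exons, that is, recovered reads per kilobase of merged exons, scaled to each library's recovered reads.

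On that scale Ccnd1 had the highest mean level over the 6 libraries, an RPKM of 127 (range 69.1 to 190), followed by Cdk4 at 86.4 (61.5 to 110) and Ccnd2 at 59.4 (39.3 to 86.5). E2f1 came next at 22.2 (18.2 to 29.1), then Ccne1 at 18.2 (9.87 to 25.5), Cdk2 at 13.7 (11.5 to 15.8) and Ccnd3 at 12.6 (9.76 to 14.4). Cdk6 at 10.4 (6.02 to 15.2) and Ccne2 at 10.4 (4.86 to 16.7) were alike, and Rb1 was lowest at 2.80 (1.31 to 5.22). Only between Ccnd2 and E2f1 did neighbours in this order not overlap. Cdk4 lay above Cdk6 in all 6 libraries. Between 143 and 19029 reads lay behind each value, fewest for Rb1.

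**Figure D1:**
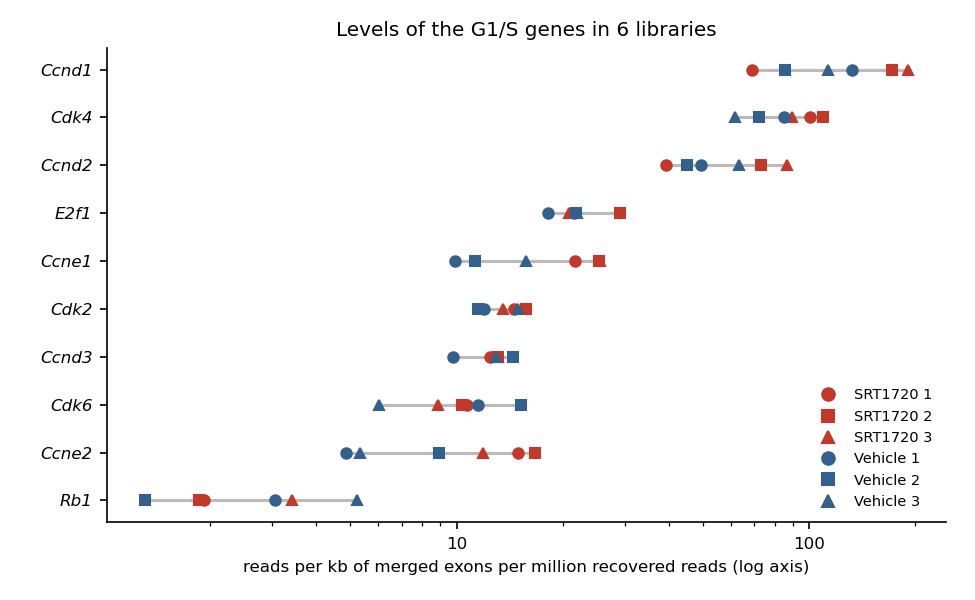
Each point is 1 library, as RPKM over merged exons on a log axis, with SRT1720 in red and Vehicle in blue, and grey lines span the 6 libraries of a gene. Ccnd1, Cdk4 and Ccnd2 lie above all libraries of the other genes, and Rb1 is lowest on average.

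The comparison of SRT1720 with Vehicle asked whether these genes differ with treatment. Among the 10 genes, both cyclin E genes lay higher with treatment: Ccne1 was 1.97 times and Ccne2 2.28 times as high with SRT1720, and every treated library lay above every vehicle library. Cdk4 was 1.37 times as high, also without overlap. The other genes, among them Cdk2, Cdk6, E2f1 and Rb1, overlapped between groups. Of the 10 genes, 9 reached the mean of 1 TPM needed for testing (Rb1 did not), and 0 of these 9 passed limma's test with Benjamini-Hochberg adjustment over all 9287 genes tested, of which 0% passed. At an unadjusted p under 0.05 there were 3 of 9, all higher with SRT1720, and 0 lower, against 12.4% of all genes tested in either direction, 7.86% higher and 4.55% lower. This count was 2 under 9 of the 17 other settings, where Cdk4 missed that p. Without SRT1720 1 it was 4, made up of Ccne1, Ccne2, Ccnd1 and Ccnd2, and Cdk4 again missed that p. The 3 genes of the main fit, Ccne1, Ccne2 and Cdk4, were also those without overlap, against 19.9% of all genes tested in either direction and 12.1% higher. Limma-voom on the recovered reads also called 0 genes. The 9 genes had a median log2 fold change of 0.26, and all genes tested one of 0.035. It was 0.42 without SRT1720 1 and 0.099 without SRT1720 2.

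**Figure D2:**
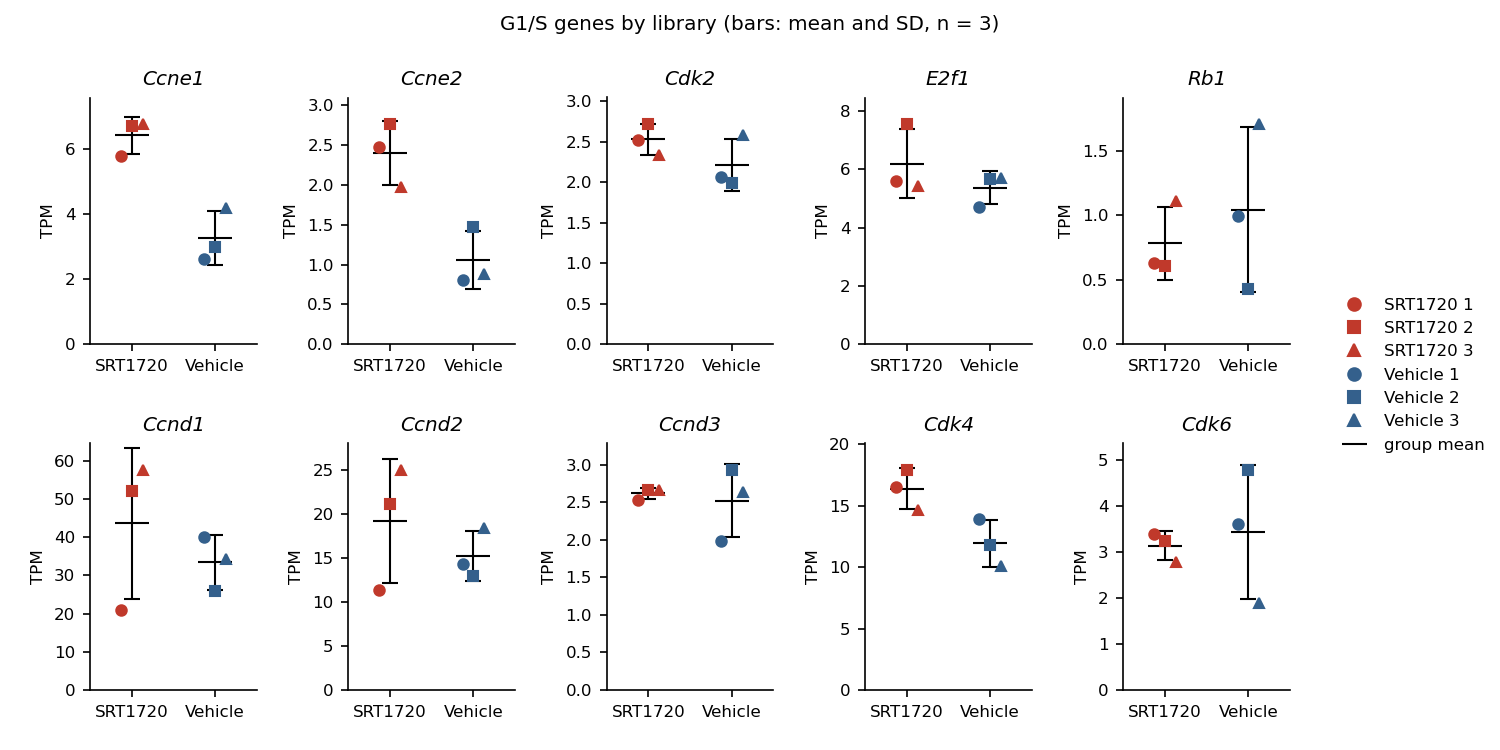
Each panel shows the TPM of 1 gene in the 3 SRT1720 (red) and 3 Vehicle (blue) libraries, with marker shapes for library numbers and black bars for the group mean and SD. The groups separate for Ccne1, Ccne2 and Cdk4 and overlap for the other 7 genes.

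Ccne1 encodes cyclin E1, the cyclin that activates CDK2 at S phase entry. Libraries 1, 2 and 3 held 5.77, 6.70 and 6.76 TPM of it with SRT1720 and 2.62, 2.98 and 4.18 TPM with vehicle, the order of libraries used for every gene that follows. The lowest treated library lay 1.59 TPM above the highest vehicle library. The log2 fold change was 0.81 (SE 0.18, 95% interval 0.38 to 1.24), with an unadjusted p of 0.00299 and a limma adjusted p = 0.263, and its p ranked 105 of 9287. An exact two-sided permutation test gave p = 0.1, the smallest that 3 libraries against 3 allow. Between 544 and 1462 reads lay behind each value. Leaving out 1 library at a time kept the log2 fold change between 0.70 and 0.96. Without both Krt5-low libraries, SRT1720 1 and Vehicle 2, it was 0.84. Ccne1 (ENSMUSG00000002068) lies on chromosome 7 from 38097984 to 38107534 (GRCm38, as for all positions given), on the minus strand, and overlaps no other annotated gene.

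Ccne2 encodes cyclin E2, the second E-type cyclin and partner of CDK2. Its level was 2.48, 2.76 and 1.97 TPM with SRT1720 and 0.806, 1.47 and 0.887 TPM with vehicle. Vehicle 2 was the highest vehicle library and still lay 0.498 TPM below SRT1720 3. On the log2 scale the difference was 0.74 (SE 0.18, 95% interval 0.31 to 1.16, limma adjusted p = 0.284), and 1.24 (adjusted p = 0.283) by limma-voom on the recovered reads, which adds no pseudocount of 1 TPM to these low values. Reads numbered 371 to 1265. Ccne2 (ENSMUSG00000028212) lies on chromosome 4 from 11191351 to 11204779 on the plus strand, and a stretch of 474 bases of its transcripts is shared with Ints8 on the opposite strand. Whether counting used strand is not given in the sources used here, so reads there cannot be told apart. Ints8, an Integrator complex subunit gene, was at 1.79, 2.93 and 2.61 TPM with SRT1720 and at 2.45, 1.23 and 1.64 TPM with vehicle, with overlapping libraries.

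Cdk2 (ENSMUSG00000025358, chromosome 10 from 128697939 to 128705031, minus strand), the kinase that both E-type cyclins activate, was at 2.52, 2.72 and 2.34 TPM with SRT1720 and at 2.07, 1.99 and 2.58 TPM with vehicle. Vehicle 3 lay among the treated libraries. Its log2 fold change was 0.14 (SE 0.14, 95% interval −0.19 to 0.46, limma adjusted p = 0.743). That interval overlapped those of Ccne1 (0.38 to 1.24) and Ccne2 (0.31 to 1.16), though it lay below both their estimates. A test of the difference between genes was not made.

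**Figure D3:**
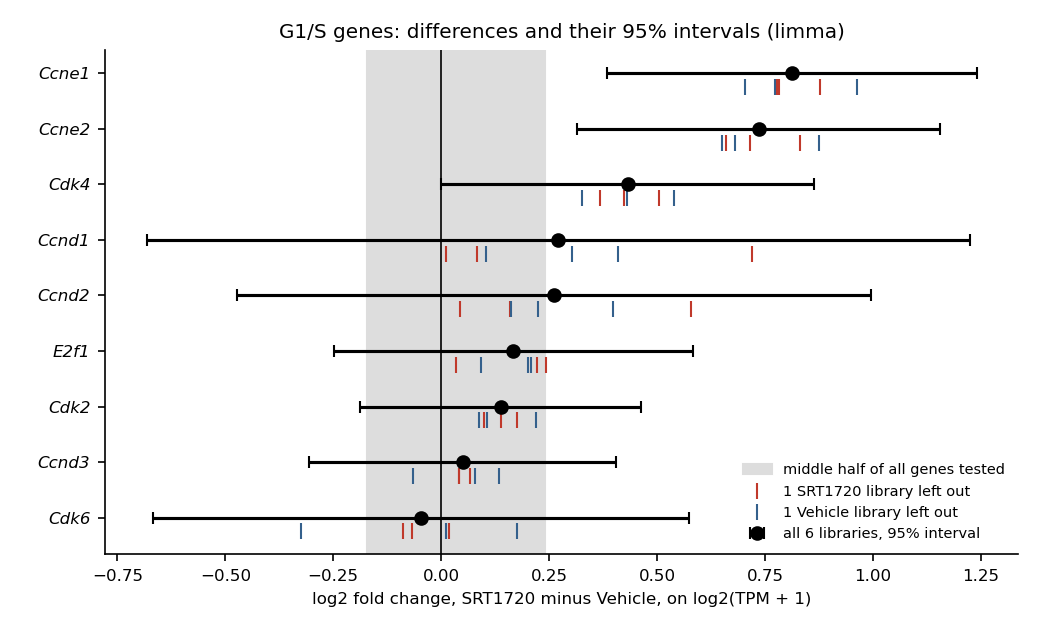
Black points are log2 fold changes (SRT1720 minus Vehicle, on log2(TPM + 1)) from limma with 95% intervals, red and blue ticks the same with 1 library of that group left out, and the grey band holds the middle 50% of all genes tested, −0.17 to 0.24. Only the intervals of Ccne1, Ccne2 and Cdk4 lie above 0, the last barely, and the ticks of Ccnd1 and Ccnd2 spread widely.

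Cdk4, the kinase partner of the D-type cyclins, had 16.5, 17.9 and 14.6 TPM with SRT1720 and 13.9, 11.8 and 10.1 TPM with vehicle. The gap between the groups was 0.737 TPM, smaller than either group's SD of 1.65 and 1.91 TPM. Cdk4 had a log2 fold change of 0.43 (SE 0.18, 95% interval 0.000495 to 0.86), with an unadjusted p of 0.0498 and a limma adjusted p = 0.402. Its unadjusted limma p was 0.0521 with a pseudocount of 0.1, 0.0576 once libraries were scaled by median of ratios, and ranged from 0.0324 to 0.158 leaving out 1 library. Cdk4 (ENSMUSG00000006728) lies on chromosome 10 from 127063534 to 127067920 on the plus strand and overlaps Tspan31 on the opposite strand, sharing 641 transcript bases. Tspan31, a tetraspanin gene, was at 8.07, 6.92 and 6.32 TPM with SRT1720 and at 6.75, 10.1 and 7.11 TPM with vehicle, a log2 fold change of −0.13. A processed pseudogene similar to Cdk4 over 264 bases (90.5% identical), Gm7158, was at 0 in all 6 libraries.

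Cdk6 (ENSMUSG00000040274, chromosome 5 from 3341485 to 3531008, plus strand), the other D-cyclin kinase, was at 3.39, 3.25 and 2.79 TPM with SRT1720 and at 3.62, 4.80 and 1.90 TPM with vehicle. The vehicle libraries enclosed the treated ones. Its log2 fold change was −0.05 (SE 0.26, 95% interval −0.67 to 0.57, limma adjusted p = 0.965), and the sign changed to 0.17 without Vehicle 2, to 0.017 without SRT1720 3 and to 0.011 without Vehicle 1. Gm21321, a processed pseudogene 90.5% identical to Cdk6 over 232 bases, held up to 1.35 TPM, so reads of the pair may be split between them.

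The sequence before the start of these genes can be set beside their values. RefSeq sequences on GRCm38.p6 were matched for 6 of the 10 genes (Ccne1, Ccnd3, Cdk2, Cdk4, Cdk6 and E2f1), and not for Ccne2, Ccnd1, Ccnd2 and Rb1. The 250 bases before each start were searched on both strands for an E2F site (TTTCCCGC, TTTCGCGC, TTTGCCGC or TTTGGCGC), for its short core TCCCGC, which the first of these contains, and for the E-box CACGTG, a site of MYC and other factors. Among 32851 RefSeq promoters, 1.86% held an E2F site, 16.9% the short core and 6.02% an E-box in that window. The sequences of Ccne1, Cdk2 and Cdk4 are printed because the first and last separated by treatment and Cdk2 encodes the partner of cyclin E. Capitals mark these matches, each sequence runs 5′ to 3′ on the gene's strand, and the 14 bases of Ccne1 next to the start are left out.
Ccne1, chr7:38107505-38107740, minus strand: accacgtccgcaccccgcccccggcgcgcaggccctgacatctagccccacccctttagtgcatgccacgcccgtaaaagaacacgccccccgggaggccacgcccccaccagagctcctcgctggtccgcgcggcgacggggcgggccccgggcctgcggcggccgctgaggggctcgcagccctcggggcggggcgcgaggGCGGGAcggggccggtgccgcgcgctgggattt
Cdk2, chr10:128705052-128705301, minus strand: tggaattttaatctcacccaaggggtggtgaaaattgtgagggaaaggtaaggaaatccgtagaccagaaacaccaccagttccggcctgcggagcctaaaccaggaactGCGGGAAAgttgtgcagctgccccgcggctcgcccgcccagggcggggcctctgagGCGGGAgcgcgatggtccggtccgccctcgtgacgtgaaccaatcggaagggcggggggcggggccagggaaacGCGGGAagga
Cdk4, chr10:127063285-127063534, plus strand: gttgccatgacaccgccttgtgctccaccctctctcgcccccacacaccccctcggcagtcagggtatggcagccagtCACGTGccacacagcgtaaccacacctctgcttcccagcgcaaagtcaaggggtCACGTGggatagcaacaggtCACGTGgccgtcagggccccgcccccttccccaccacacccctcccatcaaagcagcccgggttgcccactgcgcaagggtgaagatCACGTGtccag

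The Ccne1 sequence held 2 short cores, starting 47 and 7 bases before the start (the second in the part left out), and no full E2F site as spelled above. The start used for Ccne1 lies 44 bases inside the annotated gene, so the second core lies within that gene and the first reaches into it. The Cdk2 sequence held 1 full E2F site, 140 bases before the start, and 2 further short cores, at 84 and 10 bases. The Cdk4 sequence held no E2F match and 4 E-boxes, at 172, 118, 98 and 11 bases before the start, and 7 of the 32851 promoters held at least as many. Cdk6 held 1 E-box and 1 short core in a window whose start lies 2408 bases inside the annotated gene. Ccnd3 held none of the 3 in either of its 2 windows, the second of which starts 88416 bases inside the gene. The window given for E2f1 begins its transcript 466 bases inside the annotated gene and is not printed. These are matches of letters only. The gene with the full E2F site, Cdk2, overlapped between groups, and Ccne1 and Cdk4, which did not overlap, share none of the 3 sites. A GC box (GGGCGG) was searched as well and lay in 32.7% of the promoters. It matched 4 times in Ccne1, 5 times in Cdk2 and 1 time in Cdk4, and is not marked in the sequences. Whether any site relates to the treatment values was not tested, and Ccne2 had no sequence here.

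The D-type cyclins followed another pattern. Ccnd1, the cyclin D gene most often tied to growth factor signals, had 21.01, 52.2 and 57.7 TPM with SRT1720 and 40.1, 25.9 and 34.4 TPM with vehicle. SRT1720 1 was the lowest of all 6 libraries and SRT1720 2 and 3 the highest, so the treated group enclosed the vehicle group. It had a log2 fold change of 0.27 (SE 0.40, 95% interval −0.68 to 1.23, limma adjusted p = 0.842). Without SRT1720 1 it was 0.72 (adjusted p = 0.419), and it was 0.083 without SRT1720 2 and 0.012 without SRT1720 3. Ccnd1 (ENSMUSG00000070348) lies on chromosome 7 from 144929931 to 144939925, on the minus strand.

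Ccnd2 (ENSMUSG00000000184, chromosome 6 from 127125162 to 127152193, minus strand), a D-type cyclin that can pair with the same kinases, was at 11.4, 21.2 and 25.1 TPM with SRT1720 and at 14.3, 13.01 and 18.4 TPM with vehicle. Its order over the libraries was close to that of Ccnd1, with Pearson r = 0.914 and Spearman rho = 0.943 over the 6 libraries, a description only. Ccnd2 had a log2 fold change of 0.26 (SE 0.31, 95% interval −0.47 to 0.995, limma adjusted p = 0.794). Leaving out SRT1720 1 gave 0.58, leaving out SRT1720 3 gave 0.044, and leaving out SRT1720 2 or Vehicle 2 gave 0.16. Ccnd3 (ENSMUSG00000034165, chromosome 17 from 47505051 to 47599691, plus strand), another D-type cyclin, varied less, at 2.53, 2.66 and 2.66 TPM with SRT1720 and at 1.99, 2.94 and 2.64 TPM with vehicle. Its log2 fold change was 0.049 (SE 0.15, 95% interval −0.31 to 0.40, limma adjusted p = 0.932) and turned to −0.065 without Vehicle 1. Bysl, a ribosome assembly gene on the opposite strand that shares 361 transcript bases with Ccnd3, was at 6.39, 7.56 and 6.41 TPM with SRT1720 and at 5.45, 3.96 and 2.84 TPM with vehicle, without overlap. The processed pseudogene Ccnd3-ps, 96.3% identical over 881 bases, reached at most 0.0824 TPM.

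The lowest libraries for Ccnd1 and for Ccnd2 were those low in Krt5, SRT1720 1 and Vehicle 2. Mki67, a marker of cycling cells, was also lowest there, with 11.3 and 8.80 TPM, and 19.2 to 32.6 TPM elsewhere. Cdkn1a, which encodes the inhibitor p21, was highest there, with 20.2 and 20.4 TPM, and 2.70 to 5.22 TPM elsewhere. Over the 6 libraries Ccnd1 had r = 0.947 with Mki67, 0.877 with Krt5 and −0.80 with Cdkn1a, and these values share the same libraries and depth. Ccne1 had r = 0.523 with Mki67 and 0.300 with Krt5. The part of the Krt5-low state in the Ccnd1 and Ccnd2 values was not tested. With both libraries left out, both remaining treated libraries lay above both vehicle libraries for Ccnd1 (means of 54.96 and 37.2 TPM) and for Ccnd2 (23.1 and 16.4 TPM), and the log2 fold change of Ccnd1 was 0.55 (SE 0.18, limma adjusted p = 0.443). The same order held for Ccne1, Ccne2, Ccnd3, Cdk4 and Mki67, while Cdk2, Cdk6, E2f1, Rb1 and Cdkn1a overlapped. The share of all genes tested that separated in this way was not counted. The libraries left out were the lowest for Ccnd1 and Ccnd2.

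**Figure D4:**
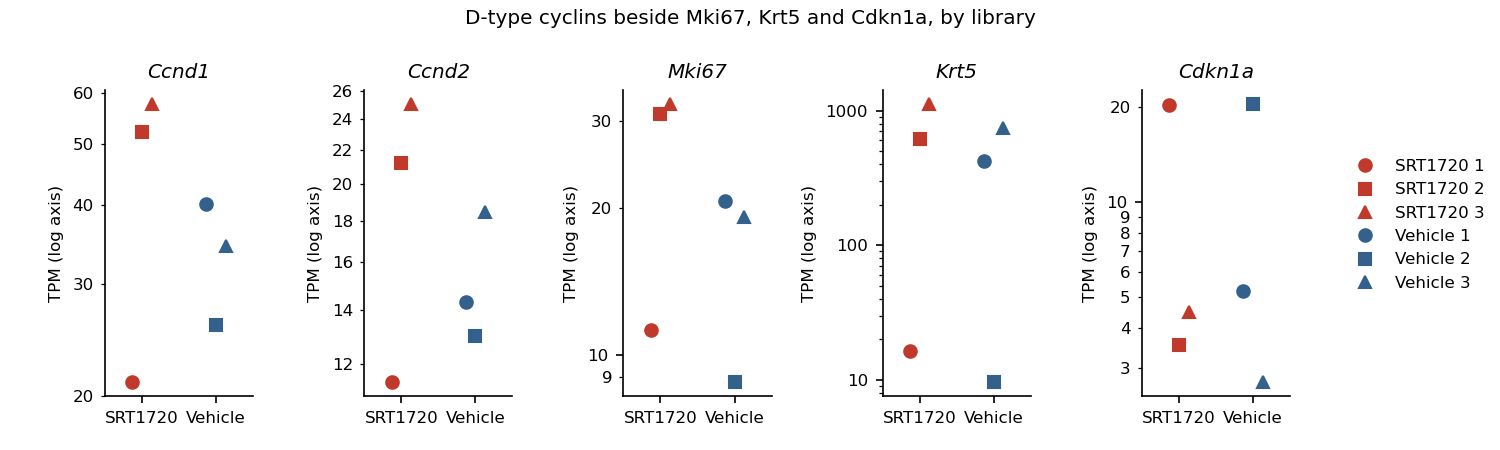
Each panel shows the TPM of 1 gene in each library on a log axis, with SRT1720 in red and Vehicle in blue and marker shapes for library numbers. SRT1720 1 and Vehicle 2 are lowest for Ccnd1, Ccnd2, Mki67 and Krt5 and highest for Cdkn1a.

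E2f1, the activator E2F best known for driving S phase genes, was at 5.59, 7.55 and 5.41 TPM with SRT1720 and at 4.71, 5.66 and 5.71 TPM with vehicle. SRT1720 2 was the highest library and Vehicle 1 the lowest, and the groups overlapped. E2f1 had a log2 fold change of 0.17 (SE 0.17, 95% interval −0.25 to 0.58, limma adjusted p = 0.760) and 0.035 without SRT1720 2. E2f1 (ENSMUSG00000027490) lies on chromosome 2 from 154559407 to 154569892, on the minus strand.

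Rb1, whose protein restrains E2F, had 0.628, 0.607 and 1.11 TPM with SRT1720 and 0.999, 0.427 and 1.71 TPM with vehicle. It was highest in SRT1720 3 and Vehicle 3 and lowest in Vehicle 2, and the groups overlapped (exact two-sided permutation p = 0.7). With no filter on low values its log2 fold change was −0.16 (SE 0.27, limma adjusted p = 0.899). Rb1 (ENSMUSG00000022105) lies on chromosome 14 from 73183673 to 73325822, on the minus strand. Lpar6, on the opposite strand within its span, shares 214 transcript bases with Rb1 and was at 0.360, 0.519 and 0.975 TPM with SRT1720 and at 0.459, 0.342 and 1.42 TPM with vehicle, also highest in SRT1720 3 and Vehicle 3 and lowest in Vehicle 2 among the vehicle libraries.

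The 10 genes did not vary as one group. Ccne1 and Ccne2 had r = 0.811 over the 6 libraries and Ccne2 and Cdk4 r = 0.800. Cdk6 and Rb1 ran opposite, at r = −0.89, and Ccne2 and Ccnd1 were unrelated, at r = 0.061. The tested genes whose levels over the 6 libraries were most like Ccne1 were L3mbtl2 (r = 0.989), Ripk1 (0.986) and Paf1 (0.986). For Ccne2 they were Ndufaf4 (0.996), Utp3 (0.993) and Rbm45 (0.992), and each of the 6 had a Spearman rho of 1 with its cyclin. They were picked as the highest of 9287 genes over only 6 libraries and are given as a description.

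Around the 10 genes, the E2F factors and the S phase targets were mostly above 0, the inhibitors were not, and no gene passed limma's adjusted test. Of 9 other E2F and DP factors, 9 were tested, 7 were above 0, where 54.8% of all genes tested were, and 4 had no overlap, all higher, against 12.1% of all genes tested. The count above 0 was 5 with median-of-ratios scaling, without SRT1720 2 and without Vehicle 2. E2f2, an activator E2F, was at 5.12, 3.36 and 3.43 TPM with SRT1720 and at 0.946, 2.02 and 1.47 TPM with vehicle. Its log2 fold change of 1.01 (SE 0.22, limma adjusted p = 0.261) exceeded that of each of the 10 genes. E2f3, also an activator, was at 4.59 ± 0.32 against 2.82 ± 0.32 TPM (SD, n = 3), E2f8, an atypical repressor E2F, at 4.09 ± 0.61 against 2.62 ± 0.33 TPM, and Tfdp1, the DNA-binding partner of the E2Fs, at 10.5 ± 0.45 against 7.66 ± 0.63 TPM. E2f4, E2f6, E2f7, E2f5 and Tfdp2 overlapped, with log2 fold changes of 0.15, 0.021, 0.0027, −0.33 and −0.08. E2f5 lies on chromosome 3 and was lowest in SRT1720 3 and Vehicle 3, at 1.32 and 1.78 TPM. The median of the 9 was 0.15.

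Of 20 E2F target genes of S phase, all 20 tested were above 0, where 54.8% of all genes tested were, with a median log2 fold change of 0.55. Of these, 11 had no overlap, all higher, against 12.1% of all genes tested, and 10 had an unadjusted p under 0.05 in that direction, against 7.86%. Those with the smallest p were Rrm2, Uhrf1, Tyms and Tk1. Rrm2, which encodes a ribonucleotide reductase subunit, had 41.2 ± 6.87 TPM with SRT1720 and 15.2 ± 0.91 TPM with vehicle (SD, n = 3; limma adjusted p = 0.155). Tyms, thymidylate synthase, was at 3.43 ± 0.97 against 1.61 ± 0.43 TPM, Tk1, thymidine kinase, at 5.48 ± 0.88 against 3.40 ± 0.38 TPM, and Uhrf1, which maintains DNA methylation, at 20.1 ± 2.99 against 11.7 ± 0.37 TPM. Mcm2 and Mcm6, subunits of the replicative helicase, and Cdt1, a factor that loads it, are named after their values were seen and overlapped, with log2 fold changes of 0.30, 0.21 and 0.16. All 6 proliferation markers were above 0 with a median of 0.51, which was 0.16 without Vehicle 2 (5 of 6 above 0), 0.295 without SRT1720 2 and 0.798 without Vehicle 1. Only 1 of the 6 did not overlap, against 12.1% of all genes tested: Birc5, an inhibitor of apoptosis that also acts in mitosis, with 11.4 ± 0.87 TPM with SRT1720 and 6.98 ± 2.42 TPM with vehicle (SD, n = 3). The mitotic genes Ccnb1, Plk1 and Cdk1 (cyclin B1, polo-like kinase 1 and the partner kinase of cyclin B1) overlapped, with log2 fold changes of 0.61, 0.47 and 0.26. Mki67 had a log2 fold change of 0.54 (SE 0.48), an error nearly as large as the difference. That error comes from a fit that leaves out any pairing of libraries. Mki67 was at 11.3, 31.1 and 32.6 TPM with SRT1720 and at 20.6, 8.80 and 19.2 TPM with vehicle.

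Among 7 CDK inhibitors, 6 were tested, 2 were above 0 and 4 below, and the list's median was −0.11 (log2), which turned to 0.094 without SRT1720 3 and to 0.014 without Vehicle 1. Cdkn1b, which encodes p27, an inhibitor of cyclin E with CDK2, was at 5.02, 4.95 and 4.23 TPM with SRT1720 and at 7.89, 6.76 and 8.29 TPM with vehicle. All treated libraries lay below all vehicle libraries, as in 7.75% of all genes tested. Cdkn1b had a log2 fold change of −0.59 (SE 0.15, 95% interval −0.95 to −0.23, limma adjusted p = 0.290). Cdkn2a, which encodes p16 and p19Arf, was at 62.9, 60.5 and 26.9 TPM with SRT1720 and at 90.9, 63.2 and 23.9 TPM with vehicle, lowest in SRT1720 3 and Vehicle 3. Its log2 fold change was −0.14 (SE 0.55). Cdkn1a was at 20.2, 3.54 and 4.51 against 5.22, 20.4 and 2.70 TPM, with a log2 fold change of 0.034 (SE 0.80). Cdkn2b, Cdkn2c and Cdkn2d, the other INK4 genes, had 9.69 ± 5.37, 5.86 ± 2.76 and 3.76 ± 1.25 TPM with SRT1720 and 10.4 ± 1.46, 5.08 ± 2.56 and 4.28 ± 2.23 TPM with vehicle (SD, n = 3). Cdkn1c stayed below the filter, at 0.268 ± 0.26 against 0.536 ± 0.35 TPM.

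**Figure D5:**
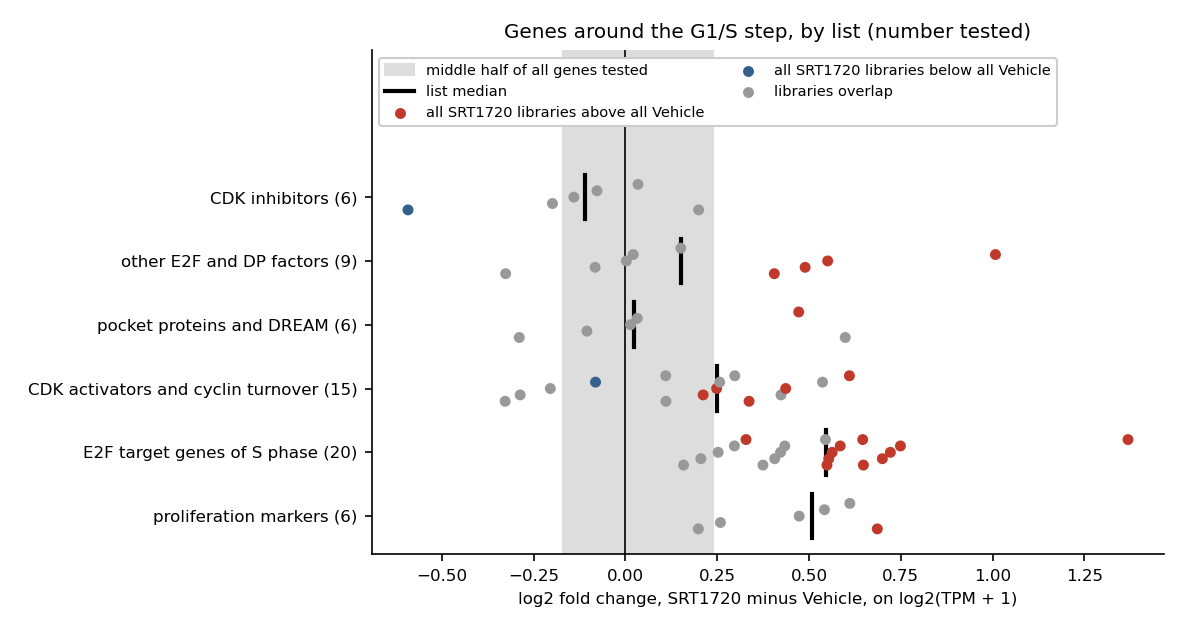
Each point is the log2 fold change (SRT1720 minus Vehicle, on log2(TPM + 1)) of 1 tested gene, coloured by whether the libraries of the groups overlap, black bars are list medians and the grey band holds the middle 50% of all genes tested. All 20 S phase targets lie above 0, and Cdkn1b is the lowest point among the inhibitors.

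Of the RB relatives, Rbl1, which encodes p107, was at 5.10, 7.08 and 5.61 TPM with SRT1720 and at 4.92, 2.95 and 4.22 TPM with vehicle, without overlap (log2 fold change 0.47, SE 0.20, limma adjusted p = 0.410). Rbl2, which encodes p130, stayed below the filter at 0.819 ± 0.18 against 0.957 ± 0.33 TPM (SD, n = 3). In the list of pocket proteins and the DREAM complex, 6 of 8 were tested, 4 were above 0 and the median was 0.023, which turned to −0.010 with median-of-ratios scaling. Mybl2, a cell cycle activator kept on this list though not a DREAM subunit, was at 8.12 ± 1.92 against 4.98 ± 1.08 TPM with overlapping libraries. Lin52 and Rbbp4, which are subunits of the complex, had log2 fold changes of −0.29 and −0.10.

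Of 17 genes that act on CDK activity or cyclin turnover, 15 were tested, 11 were above 0, where 54.8% of all genes tested were, and the median was 0.25. The list mixes activators with inhibitors, and its lowest gene was the CDK inhibitory kinase gene Wee1, at −0.33. Without overlap, 5 were higher (Fbxo5, Skp2, Cul1, Cdk7 and Cdc37), against 12.1% of all genes tested, and 1 lower (Ambra1), against 7.75%. Cdk7, Cdc37 and Ambra1 are named because their libraries did not overlap. At an unadjusted limma p under 0.05, 0 of the 15 were higher and 0 lower, against 7.86% and 4.55% of all genes tested. The smallest such p was 0.0619, for Fbxo5. Skp2 and Cul1, parts of the ligase that degrades p27, had 1.86 ± 0.25 and 8.25 ± 1.03 TPM with SRT1720 and 1.28 ± 0.32 and 5.31 ± 2.09 TPM with vehicle (SD, n = 3). Fbxo5, an inhibitor of the anaphase-promoting complex, was at 9.15 ± 0.78 against 6.59 ± 1.47 TPM, and Cdc25a, a phosphatase that activates CDK2, at 2.27 ± 0.39 against 1.66 ± 0.33 TPM. Ambra1, a receptor for degradation of D-type cyclins, was at 1.58 ± 0.11 against 1.73 ± 0.04 TPM. The lists were chosen with earlier results of these data known, so their counts describe these libraries only.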

How the data were processed

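RNA was sequenced in 6 libraries, grouped by their titles. The authors deposited 1 table of TPM values, a unit taken from the table's own name although its columns sum to only 161231 to 171577, so the values compare libraries and are not true transcript shares, and the submitters' processing notes list STAR 2.6.0 and GRCm38 without saying what each was used for. No source used here gives the counting program or annotation release. GENCODE mouse release M21 supplied names and positions and matched 51633 of 51912 IDs. Read counts were recovered because each gene's values are whole multiples of 1 step per library (tolerance 0.001), for 27712 of 27713 IDs above 0, and 1 further ID took its annotated length. A common divisor of a gene's reads would be lost, which can understate low counts. The recovery and the fit were checked on simulated data. Each gene was tested with limma 3.58.1 in R 4.3.3 (eBayes with a trend) on log2(TPM + 1), with a filter that kept 9287 genes averaging 1 TPM or more, Benjamini-Hochberg threshold 0.05, so fold changes understate those of low genes. Python 3.11.15, pandas 2.3.3, numpy 2.4.6, scipy 1.17.1 and matplotlib 3.10.9 were used. No pair of libraries in a group agreed within sampling noise (median chi-square per gene 14.8 to 32.2). The 10 genes and the lists were chosen with earlier results of these data known. By rule, the genes named were the 10 genes, all CDK inhibitors, E2F and DP factors, Rbl1, Rbl2, the 4 genes with the smallest p in each list and the 3 genes most like Ccne1 and Ccne2; other genes were named after their values were seen.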

Additional observations from a re-analysis of the deposited data

How the results depend on the processing

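Over 17 other settings, limma called 0 genes and 0 of the 10 genes in each. The log2 fold change of Ccne1 stayed between 0.70 and 1.004 and that of Ccne2 between 0.65 and 1.24, with adjusted p values from 0.0662 to 0.834 and from 0.0677 to 0.834, lowest with library weights. Genes at an unadjusted p under 0.05 numbered 2028 with no filter on low values, 498 among genes averaging 5 TPM or more, 682 without both SRT1720 3 and Vehicle 3, 2056 with library weights, and 523 (without SRT1720 2) to 1054 leaving out 1 library. With that stricter filter, 1 of the 4 tested G1/S genes had such a p, since fewer genes were tested.

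The log2 fold change of Ccnd3 lay between −0.065 and 0.13 leaving out 1 library, and that of Cdk6 between −0.32 and 0.17, and Cdk6 was at 0.13 without both SRT1720 1 and Vehicle 2. With median-of-ratios scaling the difference of Ccnd3 changed sign (exact permutation p = 1). The median of the tested G1/S genes was 0.099 to 0.42 leaving out 1 library, 0.42 without both SRT1720 1 and Vehicle 2 and 0.43 with library weights. The median of the CDK inhibitors was −0.47 to 0.094 leaving out 1 library (above 0 without SRT1720 3 and without Vehicle 1). The median of the other E2F and DP factors was 0.28 among genes averaging 5 TPM or more, 0.10 with median-of-ratios scaling, 0.11 with quantile normalization and 0.066 to 0.26 leaving out 1 library. That of the pocket proteins was 0.25 among genes averaging 5 TPM or more, −0.010 with median-of-ratios scaling, 0.071 without both SRT1720 3 and Vehicle 3 and 0.0024 to 0.073 leaving out 1 library. That of the genes acting on CDK activity or cyclin turnover was 0.34 among genes averaging 5 TPM or more. The causes were not tested. The filter of a mean of at least 100 recovered reads was chosen after seeing the data.

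With the replicate number as a block, the adjusted p of Ccne1 and of Ccne2 was 0.392, with log2 fold changes of 0.81 and 0.74, and no gene was called. The numbers do not pair the libraries: deviations from the group means correlated at −0.20, −0.26 and 0.788 for numbers 1, 2 and 3. SRT1720 1 correlated best with Vehicle 2 (0.721), SRT1720 2 with Vehicle 1 (0.676) and SRT1720 3 with Vehicle 3. All other pairs correlated negatively, which follows in part from the method. Deviations within a group cancel out for every gene, so a positive match requires negative values elsewhere. The labels give no pairing, and a fit with these matches as blocks was not made, so the SEs, intervals and p-values leave any such pairing out.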
